A study of Homo sapiens with 4 samples.

Results

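Proteasome genes were taken as the rows of the count table whose Ensembl identifier maps to a protein-coding symbol made of PSMA, PSMB, PSMC, PSMD, PSME, PSMF or PSMG and a number. The rule found 48 genes among 20515 rows, and all 48 passed the filter on low counts. Of these, 46 code for subunits, activators, an inhibitor or assembly factors of the proteasome. PSMC3IP and PSME3IP1 meet the rule by name only, since they code for interaction partners, and they are described apart. PSMA8 and PSMB11 were not analysed here. Poly(A) RNA was sequenced from T47D, an established human cell line of luminal breast cancer, in 2 untreated control samples and 2 samples treated with baicalein, a flavonoid from plant roots. The sources used here give no dose, duration or vehicle. All 4 libraries come from 1 cell line, and nothing says that they came from separate cultures, so the p-values rest on a spread between samples that may be no more than technical.

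Total counts were 38597207 to 56732569 per library, and levels are given as CPM, the count scaled to library size, with TMM factors as a correction for differences in library composition. Errors are SD over n = 2 libraries per group, fold changes are baicalein over control, and pairs of values give replicate 1 before replicate 2. A floor of 3 counts stood for 0.0549 to 0.0805 CPM, which covers counting error only. All 8 luminal epithelial markers examined were detected, with a summed level of 12334 and 13612 CPM without and 6238 and 6333 CPM with baicalein, and 7 of them were lower after baicalein. In the test described below, 37.6% of all tested genes were lower. Of 13 markers of fibroblasts, immune, endothelial and basal cells, 4 were tested and 7 were not analysed here. Their summed level was 96.2 and 108 CPM without and 151 and 141 CPM with baicalein, nearly all of it from the collagen gene COL1A1. COL1A2 and PTPRC had at most 6 counts in a library, with 0 in baicalein 2 for COL1A2 and in both controls for PTPRC. The part of these shifts in the results below was not tested. In bulk RNA, fewer cells of a type and less RNA per cell cannot be told apart.

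The proteasome is the ATP-dependent protease that degrades proteins tagged with ubiquitin. Its barrel-shaped core particle is built of outer rings of alpha subunits, which gate the entrance, and inner rings of beta subunits, some of which carry the proteolytic sites. A regulatory particle caps the core, with a base whose ring of ATPases unfolds the substrate and a lid that removes ubiquitin. Dedicated chaperones assemble both particles. Interferon induces alternative catalytic beta subunits and the activator made of PSME1 and PSME2, which favour the production of peptides for presentation on MHC class I. When proteasome capacity is short, the transcription factor NRF1, encoded by NFE2L1, raises the transcription of subunit genes through antioxidant response elements in their promoters, and NRF2, encoded by NFE2L2, binds the same elements.

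Promoter sequences in RefSeq (GRCh38.p14, 250 bases before to 50 bases after each annotated start) were available for 42 of the 48 genes, all but PSMA7, PSMB1, PSMB6, PSMB7, PSMD4 and PSMG3. The core of the antioxidant response element, TGACNNNGC, was searched on both strands and found in 15 of the 42 (35.7%), against 16.1% of 27305 genes with such windows. The core of the interferon-stimulated response element, GAAA, any 2 bases and GAAA, was searched in the same way and found in 7 of the 42 (16.7%), against 4.38% of the same genes. The 27305 genes were not limited to protein-coding or tested genes, whereas all members are both. The part of this in the differences was not tested. The matches are descriptions of letters and not of binding. The windows below show the element with up to 10 bases on each side, 5′ to 3′ on the strand where the element reads, with the element in capitals. The first set holds antioxidant response element cores, shown because these carriers include the largest falls and the largest rise among members with the element:
PSMB3, chr17:38752627-38752655, plus strand: gcctccgtttTGACTTTGCaaccaaacta
PSMA4, chr15:78540650-78540678, plus strand: gtgggcacgaTGACTCTGCaccgcctcct
PSMB9, chr6:32854034-32854062, minus strand: ccgagacaagTGACGAGGCagccccgccc
PSME1, chr14:24136098-24136126, plus strand: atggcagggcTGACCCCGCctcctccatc
PSME2, chr14:24146767-24146795, minus strand: ccctggactgTGACCCAGCcagcaccgcc
PSMD9, chr12:121888678-121888706, plus strand: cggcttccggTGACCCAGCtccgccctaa
The other set holds interferon-stimulated response element cores, shown because they lie within 30 bases of the annotated start in interferon-inducible members, together with the one before the peptide transporter gene TAP1:
PSMB8, chr6:32844032-32844061, plus strand: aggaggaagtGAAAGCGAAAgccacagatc
PSMB10, chr16:67936852-67936881, minus strand: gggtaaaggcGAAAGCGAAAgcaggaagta
PSME1, chr14:24136189-24136218, minus strand: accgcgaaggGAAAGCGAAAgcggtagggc
PSME2, chr14:24146619-24146648, minus strand: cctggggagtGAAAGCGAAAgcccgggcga
TAP1, chr6:32853819-32853848, plus strand: aggggaaagcGAAATCGAAAgcggccgcct
The TAP1 window is printed once although a second, overlapping match starts 6 bases away. PSMB8, PSMB10, PSME1 and PSME2 carry the same letters, GAAAGC, at the start of the element. The same letters start the second TAP1 match and the match of PSMG4, a core assembly chaperone gene, so they are not particular to interferon-inducible members. The promoter window of PSMB9 did not hold the interferon element, which says only that these letters are not in it. That window begins at position 32853942 of chromosome 6, shortly after the end of the TAP1 stretch printed above. It lies inside the annotated span of PSMB9 given below, which begins at 32844136.

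Most proteasome genes differed little between baicalein and control. Together the 48 took 0.574 and 0.570% of all counts without and 0.470 and 0.470% with baicalein. These shares are of raw totals, without the TMM factors used for CPM. Those factors were 1.04 and 1.03 in controls and 0.964 and 0.965 in treated libraries, so the fall in scaled level was smaller. By the quasi-likelihood test of edgeR, adjusted by Benjamini-Hochberg over 18369 genes, 8 of the 48 were higher, 26 lower and 14 did not pass an adjusted p of 0.05. Of all tested genes 75.0% passed, 37.4% as higher and 37.6% as lower. In edgeR's test against a 1.5-fold change 0 were higher and 6 lower, the same counts as at an unadjusted p under 0.05, where 36.3% of all tested genes passed, 16.8% as higher and 19.5% as lower. The median log2 fold change of the 48 was -0.14, that of all tested genes 0.0017, and the median size of change regardless of direction was 0.18 against 0.57. Values beyond 1.5-fold in either direction were found in 12.5% of the 48 genes, in 48.9% of all tested genes and in 42.8% of the 12163 tested genes within the same range of levels. The 6 genes that passed as lower by more than 1.5-fold were PSMB9, PSMC3IP, PSME1, PSME2, PSMB3 and PSMC3. Both treated libraries lay below both controls for 30 of the 48 genes and above for 9, where 43.5% and 43.4% of all tested genes did so (86.9% in either direction).

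The split between higher and lower depended on small differences. Scaling by library totals alone moved the median log2 fold change of all genes to -0.10 and gave 3 higher and 34 lower members in place of 8 and 26. Leaving out baicalein 1 gave 4 higher and 19 lower, and leaving out baicalein 2 gave 6 and 21.

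**Figure D1:**
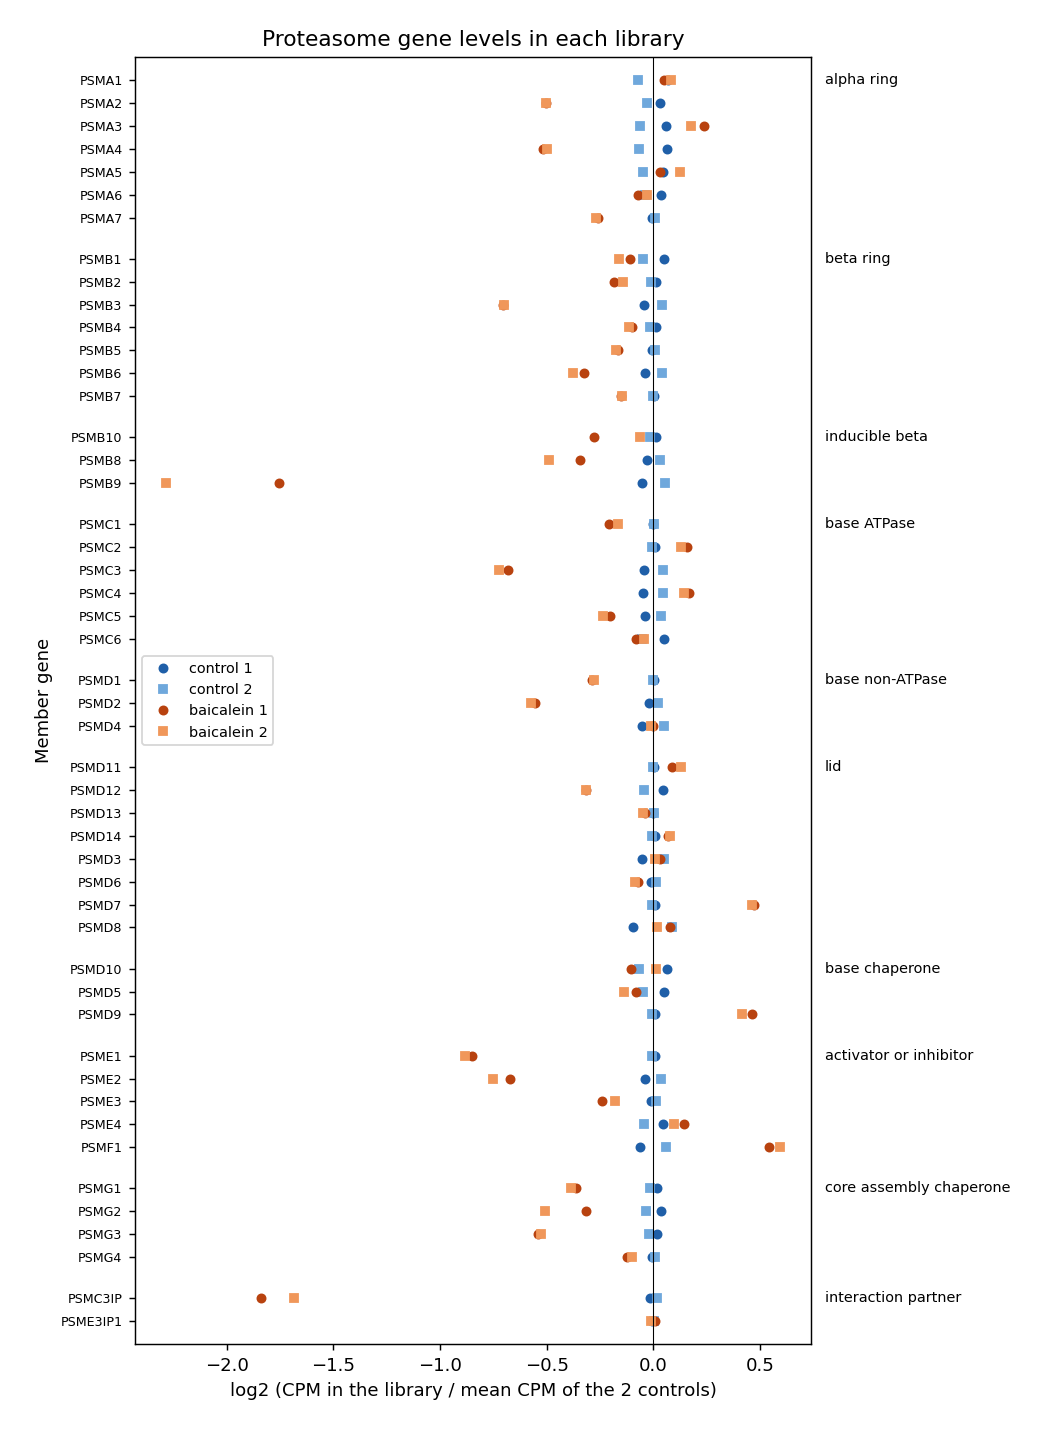
Level of each of the 48 genes in each library as log2 of its CPM over the mean CPM of the 2 controls (x axis), with genes grouped by role (y axis), circles for replicate 1 and squares for replicate 2. PSMB9 and PSMC3IP stand farthest to the left in both baicalein libraries, and PSMF1, PSMD7 and PSMD9 lie farthest to the right.

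**Figure D2:**
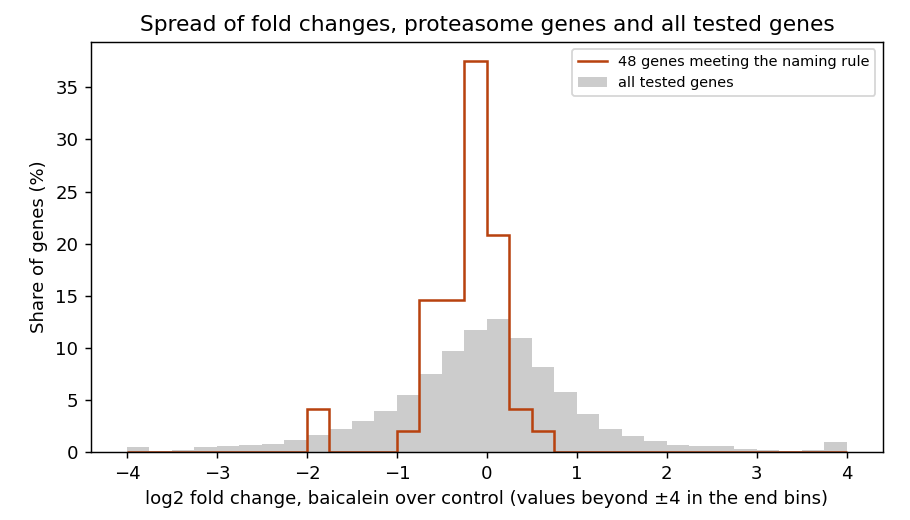
Share of genes (y axis, %) per log2 fold change bin of baicalein over control (x axis), for all tested genes (grey bars) and the 48 genes meeting the naming rule (line). The 48 genes crowd around 0, with a median size of change of 0.18 against 0.57 for all tested genes.

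Of the 7 alpha ring genes, 3 were lower, 1 was higher and 3 did not pass. This count and those of the roles below stand beside 37.4% higher and 37.6% lower among all tested genes. PSMA4 (ENSG00000041357, chromosome 15, positions 78540405 to 78552419 of GRCh38, plus strand) had 188 and 172 CPM without and 125 and 127 CPM with baicalein. Both treated libraries were thus below both controls, and PSMA4 fell 1.42-fold, with log2 fold change -0.51 ± 0.05 (SE) and adjusted p = 1.62e-09. PSMA2 was at 101 and 96.2 CPM without and 69.5 and 69.4 CPM with baicalein, a fall of the same size (-0.50 on the log2 scale), again without overlap of the groups. The third gene that fell was PSMA7, from 232 ± 1.80 to 193 ± 0.686 CPM. In the other direction, PSMA3 measured 112 and 103 CPM without and 126 and 121 CPM with baicalein, and it rose with log2 fold change 0.21 ± 0.05 (SE) and adjusted p = 0.000356, a call lost with library totals alone. The remaining members, PSMA1, PSMA5 and PSMA6, had log2 fold changes of 0.064, 0.076 and -0.051, and their groups overlapped. Exons of PSMA6 share 919 bases with the protein-coding locus AL121594.1 on the same strand, which fell 2.18-fold, and exons of PSMA2 share 781 bases with AC010132.3, which rose 1.15-fold, so counts of both members depend on how shared reads were assigned.

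All 7 constitutive beta ring genes were lower, by small amounts except in PSMB3, where 37.6% of all tested genes were lower. That gene (ENSG00000277791, chromosome 17, positions 38752736 to 38764231 of GRCh38, plus strand), a structural subunit, was at 81.9 and 86.9 CPM without and 51.9 and 51.9 CPM with baicalein. The treated libraries hardly differ and lie well under both controls. PSMB3 fell 1.63-fold, with log2 fold change -0.70 ± 0.05 (SE) and adjusted p = 8.38e-12 and adjusted p = 0.00868 against a 1.5-fold change. That last call was lost without baicalein 1 (adjusted p = 0.0793) and without baicalein 2 (0.0788). The ring holds 3 catalytic subunits. PSMB6, which carries the caspase-like site, had 68.5 and 72.2 CPM without and 56.2 and 54.2 CPM with baicalein and fell with log2 fold change -0.35 ± 0.05 (SE) and adjusted p = 1.2e-06. PSMB5, the chymotrypsin-like subunit that proteasome inhibitor drugs bind, measured 68.8 and 69.4 CPM without and 61.5 and 61.2 CPM with baicalein. Its fall was 1.13-fold (-0.17 on the log2 scale, adjusted p = 0.00229), small but beyond the spread of either group. PSMB7, with the trypsin-like site, was at 144 and 144 CPM without and 129.8 and 130.3 CPM with baicalein and fell with log2 fold change -0.15 ± 0.04 (SE) and adjusted p = 0.00279. The smallest fall was that of PSMB4, a subunit without a catalytic site, with 191 and 187 CPM without and 177 and 175 CPM with baicalein and log2 fold change -0.11 ± 0.04 (SE) and adjusted p = 0.0279. PSMB1 and PSMB2, which also lack one, fell with log2 fold changes of -0.13 and -0.16. The ring's count rests on both treated libraries. Without baicalein 1 only 2 of the 7 passed and without baicalein 2 only 3, although all 7 values stayed below 0.

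Of the 3 inducible beta genes 2 were lower and 1 did not pass, and PSMB9 changed most. PSMB9 (ENSG00000240065, chromosome 6, positions 32844136 to 32859585 of GRCh38, plus strand), which replaces PSMB6 in the interferon-induced form, had 5.29 and 5.70 CPM without and 1.63 and 1.13 CPM with baicalein. These levels stood on 250 and 268 counts in the controls and only 89 and 42 in the treated libraries. PSMB9 fell 3.88-fold, with log2 fold change -1.96 ± 0.15 (SE) and adjusted p = 1e-10. The gene of the chymotrypsin-like counterpart, PSMB8, was at 22.8 and 23.8 CPM without and 18.4 and 16.6 CPM with baicalein. Both treated values lie below both controls, a fall of 1.33-fold with log2 fold change -0.41 ± 0.07 (SE) and adjusted p = 1.53e-05. PSMB10, the counterpart of PSMB7, had 6.20 and 6.08 CPM without and 5.06 and 5.88 CPM with baicalein, and its log2 fold change of -0.18 did not pass (adjusted p = 0.139). Exons of PSMB8 and PSMB9 overlap each other over 139 bases on opposite strands, and both overlap the non-coding RNA gene PSMB8-AS1. PSMB8-AS1 had only 33 to 62 counts per library and did not pass (adjusted p = 0.117). The sources used here do not say whether the counting was stranded. Exons of PSMB10 share 644 bases with AC040162.1 on the same strand, which rose 1.31-fold.

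Levels of different genes were compared per kilobase of the principal transcript. On that scale PSMB9 made up 7.77 and 7.92% of the sum of PSMB6 and PSMB9 without and 3.06 and 2.22% with baicalein (replicate 1 first). The share of PSMB8 in the sum of PSMB5 and PSMB8 was 27.6 and 28.3% without and 25.6 and 23.8% with it. PSMB10 stood at 3.31 ± 0.0437% of its pair with PSMB7 in controls and at 3.27 ± 0.325% after baicalein. The PSMB9 and PSMB8 shares were lower in both treated libraries, whereas those of PSMB10 overlapped. A two-sided exact permutation test gave p = 0.333, 0.333 and 1, and 0.333 is the smallest value that 6 splits of 4 libraries allow. With the union of all annotated exons as length, the PSMB9 share was 3.55% in controls and 1.16% after baicalein, so the share itself depends on the length used.

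Of the 4 activator genes PSME1, PSME2 and PSME3 fell and PSME4 rose. PSME1 (ENSG00000092010, chromosome 14, positions 24136158 to 24138967 of GRCh38, plus strand) was at 76.1 and 75.5 CPM without and 42.0 and 41.0 CPM with baicalein. Both treated libraries were far below both controls, and PSME1 fell 1.82-fold with log2 fold change -0.87 ± 0.05 (SE) and adjusted p = 2.12e-13. Its partner PSME2 (ENSG00000100911, chromosome 14, positions 24143362 to 24147570 of GRCh38, minus strand) had 56.6 and 59.6 CPM without and 36.5 and 34.5 CPM with baicalein. PSME2 fell 1.63-fold with log2 fold change -0.71 ± 0.05 (SE) and adjusted p = 4.14e-11, and its call against a 1.5-fold change (adjusted p = 0.0117) was lost without baicalein 2 (0.167). PSME3, the gene of a nuclear activator that is not induced by interferon, fell from 224 ± 2.64 to 194 ± 5.89 CPM. PSME4, which codes for a large single-chain activator, rose from 89.4 ± 3.98 to 97.3 ± 2.25 CPM, with 0.12 on the log2 scale, and lost its call without either treated library (adjusted p in edgeR = 0.228 without baicalein 1 and 0.0585 without baicalein 2) and with upper quartile factors or library totals alone. PSMF1, the gene of a proteasome-binding protein described as an inhibitor in the test tube, moved the other way from PSME1 and PSME2. It measured 90.6 and 98.7 CPM without and 138 and 143 CPM with baicalein. This was the largest rise among the 48 genes, 1.48-fold, with log2 fold change 0.57 ± 0.05 (SE) and adjusted p = 1.81e-10, and it did not pass the test against 1.5-fold (adjusted p = 0.717).

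**Figure D3:**
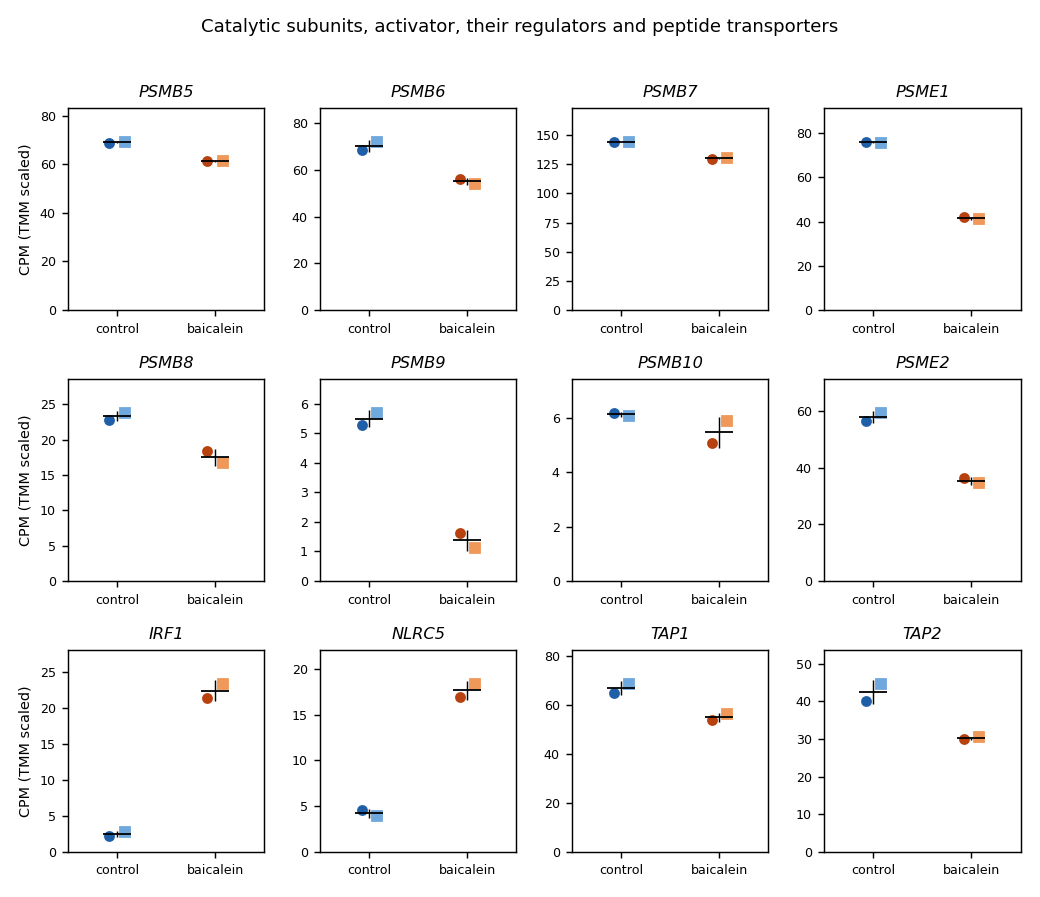
CPM (y axis) in control and baicalein libraries for catalytic beta subunits, PSME1 and PSME2 (both upper rows) and for IRF1, NLRC5, TAP1 and TAP2 (lower row), with circles for replicate 1, squares for replicate 2, and bars for mean ± SD. PSMB9, PSME1, PSME2, TAP1 and TAP2 lie lower after baicalein while IRF1 and NLRC5 lie higher.

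Among genes of immunoproteasome control and peptide transport, IRF1 and NLRC5 rose and TAP1, TAP2 and TAPBP fell. IRF1, the transcription factor that activates the inducible subunit genes, was at 2.24 and 2.79 CPM without and 21.4 and 23.4 CPM with baicalein. It rose 8.88-fold with log2 fold change 3.15 ± 0.11 (SE) and adjusted p = 1.8e-17. NLRC5, a transactivator of MHC class I genes, rose from 4.20 ± 0.466 to 17.7 ± 1.06 CPM. TAP1 (ENSG00000168394, chromosome 6, positions 32845209 to 32853978 of GRCh38, minus strand), a peptide transporter subunit, had 64.7 and 68.8 CPM without and 53.7 and 56.2 CPM with baicalein. TAP1 fell 1.22-fold, beside the 3.88-fold of PSMB9, and the difference between these falls was not tested. TAP2 fell from 42.5 ± 3.22 to 30.2 ± 0.390 CPM and TAPBP, which codes for the adaptor tapasin, from 159.8 ± 3.55 to 123 ± 3.47 CPM.

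Of the 6 ATPase genes of the base, 3 were lower, 2 higher and 1 did not pass. PSMC3 (ENSG00000165916, chromosome 11, positions 47418769 to 47426473 of GRCh38, minus strand) was at 185 and 196 CPM without and 119 and 115 CPM with baicalein. Both treated values lie below the controls by far more than the replicates differ, and PSMC3 fell 1.63-fold with log2 fold change -0.70 ± 0.05 (SE) and adjusted p = 2.74e-12. Its call against a 1.5-fold change (adjusted p = 0.00644) was lost without baicalein 2 (0.122). PSMC5 and PSMC1 fell with log2 fold changes of -0.22 and -0.19. The highest log2 fold change in the ATPase ring was that of PSMC4 (0.16), with 67.7 and 72.3 CPM without and 78.4 and 77.4 CPM with baicalein. Its rise of 1.11-fold and that of PSMC2 (1.10-fold) were both lost without baicalein 1 and with library totals alone. PSMC6 had a log2 fold change of -0.064 and did not pass. Exons of PSMC5 overlap 874 bases of FTSJ3 on the opposite strand, which fell 1.82-fold, and exons of PSMC1 overlap 4671 bases of NRDE2, which did not pass.

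Among the other base genes, PSMD2 and PSMD1, which code for the large scaffold subunits, fell and PSMD4, the gene of a ubiquitin receptor, did not pass. PSMD2 (ENSG00000175166, chromosome 3, positions 184298709 to 184309054 of GRCh38, plus strand) was the most abundant of the 48 genes in CPM, with 718 and 739 CPM without and 495 and 489.5 CPM with baicalein. The groups are far apart beside the spread within each, and PSMD2 fell 1.48-fold with log2 fold change -0.57 ± 0.04 (SE) and adjusted p = 1.83e-11. PSMD1 fell from 144 ± 0.414 to 118 ± 0.470 CPM. PSMD4 was at 169 and 182 CPM without and 176 and 174 CPM with baicalein, with both treated values between the controls.

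Of the 8 lid genes 5 did not pass, 2 were higher and 1 was lower. Their median log2 fold change was 0.034, and it turned to -0.037 without control 1 and to -0.069 with library totals alone. PSMD7 (ENSG00000103035, chromosome 16, positions 74296775 to 74306288 of GRCh38, plus strand), the partner of the deubiquitinating subunit, had 124 and 123 CPM without and 172 and 171 CPM with baicalein. It rose 1.38-fold with log2 fold change 0.47 ± 0.04 (SE) and adjusted p = 1.13e-09, and the replicates of each group were close together. PSMD14, which codes for that deubiquitinating subunit, did not follow it past the threshold and had 66.6 and 65.8 CPM without and 69.4 and 69.8 CPM with baicalein. The member that fell was PSMD12, with 134 and 126 CPM without and 105 and 105 CPM with baicalein. Its treated libraries lie below both controls, and the change was -0.32 on the log2 scale. PSMD11 had a log2 fold change of 0.11, and its call was lost without either treated library and with 2 of the 3 other scalings. PSMD3, PSMD6, PSMD8 and PSMD13 had values of 0.020, -0.078, 0.049 and -0.043 and did not pass. Exons of PSMD7 overlap 842 bases of AC009120.2 on the opposite strand, which rose 1.60-fold, and its part in the PSMD7 rise was not tested.

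All 4 genes of core assembly chaperones had negative values and 3 were lower. PSMG3 measured 53.2 and 51.8 CPM without and 36.1 and 36.4 CPM with baicalein, and it fell 1.45-fold with log2 fold change -0.53 ± 0.05 (SE) and adjusted p = 2.76e-09. The genes PSMG1 and PSMG2, whose products form a pair that starts the alpha ring, fell with log2 fold changes of -0.37 and -0.40. PSMG4, the partner of PSMG3, had 15.4 and 15.6 CPM without and 14.2 and 14.4 CPM with baicalein and did not pass (adjusted p = 0.168). Exons of PSMG2 share 92 bases with SPIRE1 and 468 bases with CEP76, and those of PSMG4 share 174 bases with TUBB2B, all on opposite strands. SPIRE1 and TUBB2B rose 5.50-fold and 11.6-fold and CEP76 fell 2.40-fold, and whether these moved the members' counts was not tested. POMP, the gene of the chaperone that completes core maturation, had 46.7 and 43.2 CPM without and 42.0 and 44.0 CPM with baicalein and did not pass. Among the base chaperones PSMD9 was higher, with 41.9 and 41.4 CPM without and 57.4 and 55.5 CPM with baicalein and log2 fold change 0.44 ± 0.05 (SE) and adjusted p = 4.85e-08. Exons of PSMD9 share 1307 bases with AC069503.2 and 436 bases with CFAP251 on the same strand. CFAP251 rose 2.20-fold, and whether it moved the PSMD9 counts was not tested. PSMD5 had 93.6 and 87.5 CPM without and 85.5 and 82.2 CPM with baicalein, and its call at a log2 fold change of -0.11 was lost in DESeq2, with a filter of at least 50 counts in 2 libraries, and without control 1, baicalein 1 or baicalein 2. PSMD10 had a log2 fold change of -0.051 and did not pass.

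**Figure D4:**
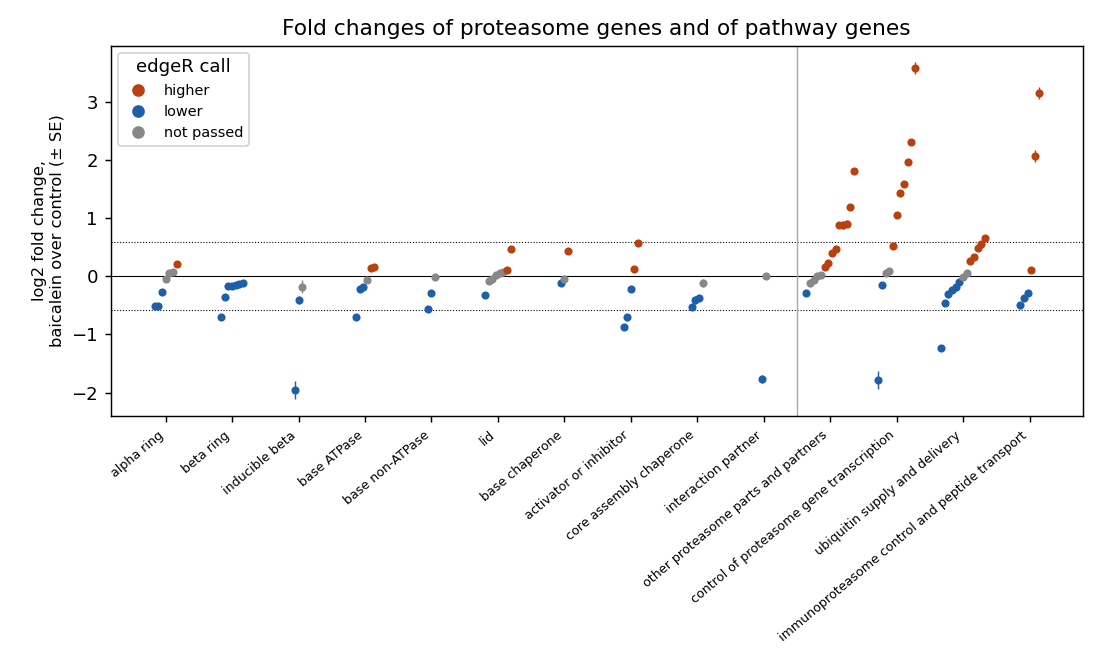
Log2 fold change of baicalein over control with its standard error (y axis) for each gene by role or pathway list (x axis), coloured by edgeR's call at an adjusted p of 0.05, with dotted lines at 1.5-fold. The beta ring, the inducible beta and the core assembly chaperone genes lie at or below 0. Of 11 tested genes listed for control of proteasome transcription, 6 passed as more than 1.5-fold higher, beside 16.8% of all tested genes.

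Averaged per kilobase, the CPM levels of the 14 constitutive core genes were 103 and 101 without and 90.1 and 89.6 with baicalein, a ratio of means of 0.884. The 17 genes of the regulatory particle averaged 72.3 and 74.8 without and 66.9 and 66.3 with it, a ratio of 0.905. Both means were lower in both treated libraries. The median level over the core genes had a ratio of 0.700, and that over the regulatory particle was higher after baicalein (49.7 against 45.8). Such a median follows only the genes of middle rank, so it is not the change of a typical gene. The median log2 fold change of single genes was -0.16 in the core, with 11 of 14 below 0. In the regulatory particle it was -0.0435, with 10 of 17 below 0. Within the core the lowest CPM level per kilobase of the principal transcript in controls was that of PSMA5 (13.8) and the highest that of PSMA7 (233). Long annotated ends weigh on such comparisons, since the principal transcript of PSMA5 has 3729 bases and that of PSMA7 has 996. No order of subunits is read from them.

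The interaction partners differed from each other. PSMC3IP, which codes for a factor of meiotic and homologous recombination that was named after its binding to PSMC3, was at 38.0 and 38.8 CPM without and 10.7 and 11.9 CPM with baicalein. It fell 3.41-fold with log2 fold change -1.77 ± 0.07 (SE) and adjusted p = 1.65e-16. Without both partners the count of lower members is 25 of 46. Its exons overlap 770 bases of MLX on the opposite strand, which fell 1.15-fold. PSME3IP1 had 64.0 and 64.4 CPM without and 64.6 and 63.6 CPM with baicalein, and its value did not pass (adjusted p = 0.969).

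Of 12 genes listed for control of proteasome gene transcription 11 were tested, with 7 higher and 2 lower, and 6 passed as more than 1.5-fold higher. Of all tested genes 37.4% were higher and 37.6% lower, and 16.8% passed as more than 1.5-fold higher. The median log2 fold change of the listed genes was 1.06. The list joins transcription factors with genes of protein turnover such as SEL1L, so its counts do not measure transcriptional activity. NFE2L1 (ENSG00000082641, chromosome 17, positions 48048329 to 48061487 of GRCh38, plus strand) was at 353 and 375 CPM without and 1394 and 1428 CPM with baicalein. It rose 3.88-fold with log2 fold change 1.96 ± 0.04 (SE) and adjusted p = 1.09e-20, while the largest rise among the 46 proteasome genes was the 1.48-fold of PSMF1. NFE2L2 had 55.1 and 50.7 CPM without and 140.2 and 146 CPM with baicalein and rose with log2 fold change 1.43 ± 0.05 (SE) and adjusted p = 1.51e-17. Their relative NFE2L3 fell from 4.99 ± 0.256 to 1.43 ± 0.233 CPM. Among the small MAF proteins, which pair with NRF factors on DNA, MAFG rose from 34.4 ± 0.353 to 170.2 ± 2.71 CPM and MAFF from 2.49 ± 0.0232 to 29.8 ± 3.36 CPM, and MAFK had a log2 fold change of 0.089 that did not pass. SEL1L, part of the machinery that moves proteins out of the endoplasmic reticulum for degradation, rose from 217 ± 2.91 to 652 ± 9.79 CPM. These are RNA levels, and NRF1 is also controlled by cleavage and turnover of its protein, which was not measured.

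**Figure D5:**
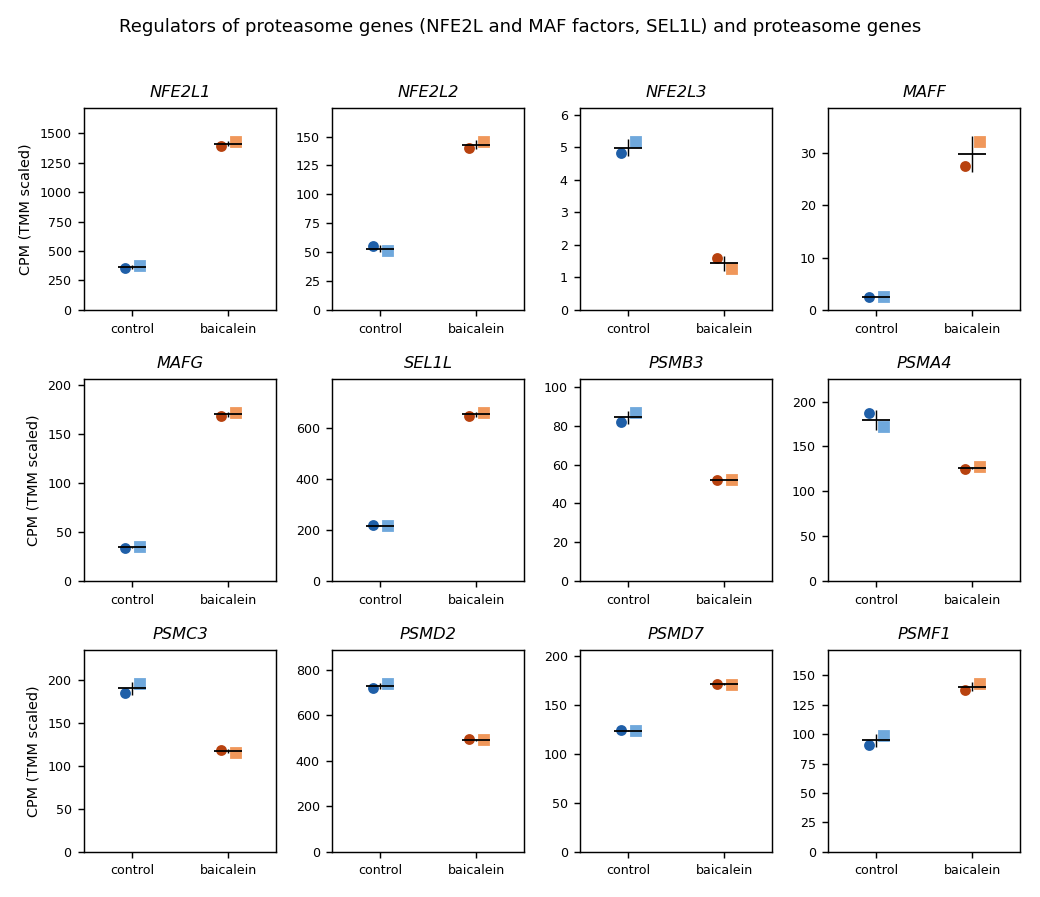
CPM (y axis) in control and baicalein libraries for 6 genes listed for control of proteasome gene transcription and for PSMB3, PSMA4, PSMC3, PSMD2, PSMD7 and PSMF1, with circles for replicate 1, squares for replicate 2, and bars for mean ± SD. NFE2L1, NFE2L2, MAFF, MAFG and SEL1L lie higher after baicalein and NFE2L3 lower, while 4 of the 6 proteasome genes shown lie lower.

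Both with and without the antioxidant response element core, more members were lower than higher. Of the 15 with it, 3 were higher (PSMD9, PSMC4 and PSME4), 11 lower and 1 did not pass. Of the 27 without it, 5 were higher, 10 lower and 12 did not pass. Among the genes whose elements are printed above, PSMB3, PSMA4, PSMB9, PSME1 and PSME2 fell and PSMD9 rose. Of the 7 with the interferon-stimulated response element core, 5 were lower and 2 did not pass, beside 8 higher, 16 lower and 11 that did not pass among the 35 without it. For comparison, 37.4% of all tested genes were higher and 37.6% lower. Calls were not counted among all genes that carry either element. Whether calls differ between members with and without an element was not tested.

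Other parts and partners of the proteasome were higher in 9 of 14 cases and lower in 1, with 4 that did not pass and a median log2 fold change of 0.32. Among all tested genes 37.4% were higher and 37.6% lower. ADRM1 and SEM1, which code for a ubiquitin receptor and a small lid subunit outside the naming rule, resembled the subunits in size of change. ADRM1 had 114 and 123 CPM without and 131 and 133 CPM with baicalein and rose with log2 fold change 0.16 ± 0.05 (SE) and adjusted p = 0.00406, a call lost with library totals alone and without baicalein 2. SEM1 had a log2 fold change of -0.12 and did not pass (adjusted p = 0.0733). The list's 4 smallest adjusted p-values belonged to ZFAND5, ECPAS, TXNL1 and AKIRIN2, which all rose. ZFAND5, which codes for a zinc finger protein that stimulates the proteasome, was at 61.8 and 57.6 CPM without and 209 and 209 CPM with baicalein. It rose 3.49-fold with log2 fold change 1.81 ± 0.05 (SE) and adjusted p = 1.65e-19. ECPAS, the gene of an adaptor and scaffold of the proteasome, had 146 and 146 CPM without and 333 and 332 CPM with baicalein and rose 2.28-fold. TXNL1, whose product binds the regulatory particle, rose from 48.8 ± 3.35 to 89.4 ± 1.16 CPM, and AKIRIN2, the gene of a factor for import of proteasomes into the nucleus, from 17.8 ± 0.287 to 33.2 ± 0.562 CPM.

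Ubiquitin supply and delivery genes were 5 higher, 6 lower and 2 that did not pass, of 13, beside 37.4% higher and 37.6% lower among all tested genes. UBB, a polyubiquitin gene, had 309.8 and 349.7 CPM without and 144 and 136 CPM with baicalein. Both treated libraries lie below both controls, and UBB fell 2.35-fold. RAD23B and UBQLN1, which code for shuttles that carry ubiquitinated proteins to the proteasome, rose with log2 fold changes of 0.49 and 0.55.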

How the data were processed

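Poly(A) RNA was measured in 4 T47D libraries. The submitters' processing notes name STAR 2.7.8a, cutadapt 2.3, RSEM 1.3.3, FastQC 0.11.8 and DESeq2 1.34 with GRCh38, but not their roles. For the annotation and for strand use in counting, the sources give nothing. The deposited file holds unscaled whole-number counts of each gene, and whether they are rounded RSEM estimates is not stated. The smallest row total was 10, and 0 columns belonged to other samples. Groups and replicate numbers come from the sample titles. Gene symbols came from the reference names table (17419 rows with a symbol), and coordinates, gene types, overlaps and lengths from GENCODE release 29 on GRCh38 (19849 rows). The length of a gene is that of its APPRIS principal transcript.

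The test was that of edgeR 4.0.16, under R 4.3.3 (robust quasi-likelihood fit, F test, and glmTreat against a 1.5-fold change) over all 4 libraries without covariates, with TMM scaling and filterByExpr (minimum count 10, minimum total 15), which left 18369 of 20515 genes in the test. All adjusted p-values follow Benjamini-Hochberg across those genes. The standard error is the size of the log2 fold change divided by the square root of F. Alternatives were other scalings and filters, DESeq2 1.42.0, limma-voom (limma 3.58.1), a threshold of 0.01, a replicate block and leaving out each library. Other gene lengths and the search for the interferon element were added after seeing the data. The members and lists were chosen with earlier results of these data known. The genes named with values in every library are the highest and lowest fold change of each role, the catalytic pairs, PSME1, PSME2, PSMF1 and the partners. From each pathway list the 4 smallest adjusted p-values and a set of regulators are named, except for genes that are not reported here. Members and overlapping genes named beyond this rule were chosen after their values were seen.

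Replicates differed by more than sampling noise (mean chi-square per gene 9.61 in controls and 2.43 in treated libraries), and deviations of same-numbered libraries correlated at 0.024 over 13147 genes. Before use, the fitting code was tested on simulated counts with set fold changes. It recovered 60% of 50 genes changed 1.2-fold, 88% at 1.5-fold, 98% at 2-fold and 100% at 4-fold. Small changes were thus often missed. Of its 193 calls, 20 fell on unchanged genes. In the simulation 17462 of 17662 genes were unchanged, unlike in the data, so that share of false calls does not carry over.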

Additional observations from a re-analysis of the deposited data

How the results depend on the processing

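The counts of members were 8 higher and 26 lower with DESeq2 size factors, no filter, limma-voom and the replicate block as well. Library totals alone gave 3 higher, and the members' median log2 fold change of -0.14 became -0.25 there, -0.17 with upper quartile factors, -0.15 without a filter and -0.13 with at least 50 counts in 2 libraries. Leaving out 1 library gave 4 to 10 higher, 19 to 28 lower, 3 to 6 lower by more than 1.5-fold, and medians from -0.15 to -0.13. There the single library left in a group borrows its spread from the pair in the other. The replicate block left the counts at 8 and 26 and the median at -0.14, and it changed no call of a member. With exon union lengths the PSMB9 share fell by 2.39 in place of 5.21 percentage points, and the core ratio was 0.861. Of 34 called members 22 kept direction and call in every alternative run on single genes. Signs turned in 14 genes, none of which passed in the fit reported above. PSMD4, PSME3IP1 and UBQLN2 passed as lower with library totals alone, and others passed when 1 library was left out. With library totals alone the log2 fold change was PSMA1 -0.040, PSMA5 -0.028, PSMD14 -0.032, PSMD3 -0.084, PSMD8 -0.054, PAAF1 -0.10, UCHL5 -0.085, NGLY1 -0.040, MAFK -0.015 and RPS27A -0.041. With at least 50 counts in 2 libraries the log2 fold change was PSMD4 0.0038 and PSME3IP1 0.0080. With upper quartile factors the log2 fold change was PSMD3 -0.012, PAAF1 -0.030 and UCHL5 -0.013. With DESeq2 size factors the log2 fold change was PSME3IP1 0.00039. With DESeq2 test the log2 fold change was PSME3IP1 0.00026. With no filter on low counts the log2 fold change was PAAF1 -0.0034. Leaving out 1 library turned the sign in 9 genes, with values from -0.00030 to 0.18 for MAFK, -0.054 to 0.063 for PAAF1, -0.0015 to 0.13 for PSMA1, -0.11 to 0.016 for PSMD10, -0.033 to 0.077 for PSMD3, -0.060 to 0.052 for PSMD4, -0.041 to 0.15 for PSMD8, -0.0094 to 0.017 for PSME3IP1 and -0.054 to 0.026 for UBQLN2. The cause of these shifts was not tested. At 42 counts in its lowest library, PSMB9 is the member whose level is least precise.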

Other observations

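Pseudogenes and antisense transcripts of proteasome genes lie outside the naming rule, which asks for protein-coding genes, and 11 rows of the table belong to this class. PSMD10P2, a transcribed processed pseudogene, had 1 and 1 counts without and 42 and 25 with baicalein, while its parent gene PSMD10 did not pass. PSME2P2, a processed pseudogene of PSME2, fell with a log2 fold change of -1.70 from 18 and 16 to 5 and 5 counts, the direction of PSME2 itself. Reads shared with the parent gene could contribute to both rows, which was not tested. The antisense transcript PSMG3-AS1 rose from 6.38 ± 0.654 to 10.9 ± 0.131 CPM while PSMG3 fell, and the share of their common 60 bases in this was not tested. PSMA3-AS1 rose from 62.8 ± 6.14 to 75.6 ± 2.12 CPM, the direction of PSMA3.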
